A study of Mus musculus with 19 samples.

Results

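The MHC class I molecules described here are 10 genes of the mouse, taken by their symbols from a table of 24537 genes: the heavy chain genes H2-K1, H2-D1, H2-Q4, H2-Q6, H2-Q7, H2-Q10, H2-T22, H2-T23 and H2-M3, and the light chain gene B2m. All 10 were in the table and all 10 passed the filter on low counts. They were measured by sequencing poly(A) RNA of hepatocytes, the cells that make up most of the liver and carry its metabolism, isolated by perfusion from male wild-type C57BL/6J mice with 1 library per mouse. The young group held 10 mice of 5 months and the old group 9 mice of 24 months. The mice were culled on 2 days, 23 days apart: 5 young and 5 old on the first, 5 young and 4 old on the second. Mice are named by their library numbers.

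A class I molecule is a heavy chain held on the cell surface with the light chain beta-2-microglobulin, and it shows peptides cut from the cell's own proteins to CD8 T cells and natural killer cells. The classical heavy chains H2-K and H2-D are carried by nearly every nucleated cell, while the non-classical chains of the Q, T and M regions have narrower tasks. Interferons raise the genes of this system together with those that cut and load the peptides. Hepatocytes are known for moderate surface class I and for secreting a soluble class I chain, the product of H2-Q10.

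Depth over genes ranged from 17381439 to 19583060 estimated counts in young libraries and from 18156240 to 20287628 in old libraries. The hepatocyte identity of the material was checked on 9 markers, Alb, Apoa1, Ttr, Hnf4a, Cps1, Ass1, Cyp2e1, Hpx and Fgb. They summed to between 110483 and 157650 CPM (a gene's count relative to the library's total, adjusted by the trimmed mean of M-values) in young mice and to between 131141 and 210002 CPM in old mice, most of it Alb. Single markers moved both ways with age in the edgeR fit given below, with Alb and Apoa1 higher, Cps1 (0.64-fold), Ass1 (0.66-fold) and Hnf4a (0.81-fold) lower in old mice, and 4 not called; their part in the class I differences was not tested. Old mouse 1187 stood apart, with the highest value of the old mice for 9 of the 10 members and the lowest for H2-Q10, and results that rest on it are given with and without it. Fits were also made without 3 young mice culled on the first day, 1184, 1186 and 1188.

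Because members of this family are close copies, the sharing of sequence and of table rows was measured first. The heavy chain genes lie on chromosome 17 of the mm10 build and B2m on chromosome 2. H2-K1 spans 33996012 to 34000333, H2-D1 35263094 to 35267497, H2-Q4 35379617 to 35384674, H2-Q6 35424877 to 35428361 and H2-Q7 35439155 to 35443773. H2-Q10 follows at 35470089 to 35474563, H2-T23 at 36029977 to 36032701, H2-T22 at 36038409 to 36042702 and H2-M3 at 37270234 to 37274485. B2m spans 122147687 to 122153082. In 4 cases a second row of the table lies on the same strand over a member. The row for H2-Q9 held 100.1% to 100.5% of the count of H2-Q7 in every library, and the row for H2-Q8 held 104.2% to 109.8% of the count of H2-Q6. The row for H2-T9 held 94.6% to 97.0% of the count of H2-T22, and that for H2-L held 66.7% to 72.9% of the count of H2-D1. These pairs therefore cannot be told apart in the table, and a value under one name stands for the locus.

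Sharing between separate loci was smaller. Of all 100-base windows in the reference transcripts of H2-K1, H2-M3 and B2m, 0% were found in a transcript of another gene. The share was 2.66% for H2-Q4, 2.84% for H2-Q10, 4.64% for H2-D1 and 7.28% for H2-T23. It was 14.2% for H2-T22, 19.3% for H2-Q6 and 21.9% for H2-Q7. H2-Q6 and H2-Q7 had 166 windows in common, and 163 windows of H2-T22 were found in H2-T10. How reads with several matches were treated is not given in the sources used here, so H2-Q6, H2-Q7 and H2-T22 are the least certain members.

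The upstream sequences of class I genes carry a conserved control region, with a kappa B element bound by NF-kappa B, an element bound by interferon regulatory factors, and a module with a cAMP response element (CRE) and a CCAAT box. The 200 bases before the annotated start are printed for 7 members, so that H2-Q10, a heavy chain that was not called with age, can be set beside the classical pair, a pair of Q region genes, H2-T23 and the light chain. They are RefSeq promoter sequences of GRCm38.p6, written 5′ to 3′ on the strand of the gene. Capitals mark letter matches on either strand to GGGGATT followed by any base and CC (kappa B), AANNGAAA (interferon regulatory factor), TGACG (CRE) and CCAAT.
H2-K1: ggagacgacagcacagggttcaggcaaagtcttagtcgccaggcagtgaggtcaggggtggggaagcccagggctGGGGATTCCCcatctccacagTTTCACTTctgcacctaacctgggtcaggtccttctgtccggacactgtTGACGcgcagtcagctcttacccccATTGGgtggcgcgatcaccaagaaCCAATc
H2-D1: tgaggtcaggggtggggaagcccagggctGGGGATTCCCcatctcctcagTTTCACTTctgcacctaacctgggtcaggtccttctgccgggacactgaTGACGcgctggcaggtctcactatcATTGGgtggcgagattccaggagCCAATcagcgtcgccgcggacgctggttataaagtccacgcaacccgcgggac
H2-Q4: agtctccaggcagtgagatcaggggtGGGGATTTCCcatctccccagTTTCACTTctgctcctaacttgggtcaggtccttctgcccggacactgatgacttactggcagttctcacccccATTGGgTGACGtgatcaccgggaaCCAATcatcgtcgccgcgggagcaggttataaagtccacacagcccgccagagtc
H2-Q7: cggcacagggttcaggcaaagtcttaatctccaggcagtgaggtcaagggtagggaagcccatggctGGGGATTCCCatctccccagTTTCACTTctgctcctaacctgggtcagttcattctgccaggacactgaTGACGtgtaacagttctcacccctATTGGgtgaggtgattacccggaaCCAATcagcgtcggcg
H2-Q10: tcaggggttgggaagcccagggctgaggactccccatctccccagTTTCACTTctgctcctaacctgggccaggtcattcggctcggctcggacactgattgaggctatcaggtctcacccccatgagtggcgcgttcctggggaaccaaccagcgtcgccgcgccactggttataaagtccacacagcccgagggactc
H2-T23: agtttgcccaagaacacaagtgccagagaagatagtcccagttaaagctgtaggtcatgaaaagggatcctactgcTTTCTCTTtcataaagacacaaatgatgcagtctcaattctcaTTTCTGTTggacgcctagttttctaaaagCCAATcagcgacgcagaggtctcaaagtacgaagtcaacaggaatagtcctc
B2m: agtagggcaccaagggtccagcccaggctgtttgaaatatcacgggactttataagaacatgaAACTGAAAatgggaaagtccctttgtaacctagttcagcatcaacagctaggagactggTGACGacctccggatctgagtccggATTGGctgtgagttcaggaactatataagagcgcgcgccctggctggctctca
They lie at chr17:34000334-34000533 (minus strand), chr17:35262894-35263093, chr17:35379417-35379616, chr17:35438955-35439154, chr17:35469889-35470088, chr17:36032702-36032901 (minus strand) and chr2:122147487-122147686. In these sequences no 2 matches to different motifs overlap.

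Counted over the 250 bases before the start, the kappa B letters were found in 5 of the 10 members, H2-K1, H2-D1, H2-Q4, H2-Q6 and H2-Q7, against 0.24% of 32851 promoters in the reference. The interferon regulatory factor letters were found in 10 of 10 members and in 21.3% of all promoters. The CRE letters were found in 7 members and 17.8% of all promoters, and CCAAT in 9 members and 33.8% of all promoters. The H2-Q10 window held the interferon regulatory factor letters but no match to the other 3 motifs. H2-T23 held 2 interferon regulatory factor matches, 124 and 81 bases before the start, and 1 CCAAT match. In H2-K1, H2-D1 and H2-Q7 the CRE match lay farther from the start than the CCAAT matches. In H2-Q4 it lay elsewhere, 73 bases before the start, between CCAAT matches at 79 and 55 bases. The letters were chosen after these sequences had been seen, and a match describes the letters, not binding. The 5 promoters with the kappa B letters were 57.9% to 82.0% identical in pairs, so their matches are not independent of one another. The annotated start used for H2-Q6 lay 27 bases and that for H2-T22 40 bases from the start in the count table, and for the other members the 2 starts coincided.

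**Figure D1:**
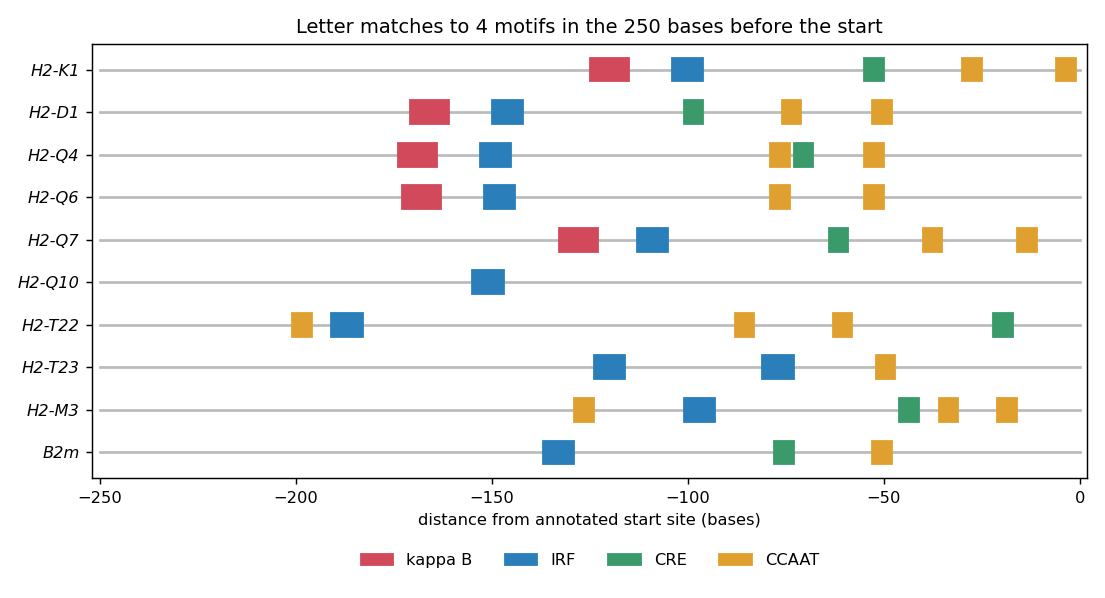
Letter matches to 4 motifs in the 250 bases before the annotated start of each class I gene; the horizontal axis is the distance from the start in bases and each block is 1 match on either strand. H2-Q10 holds 1 block, for the interferon regulatory factor letters, 155 bases before the start, while H2-K1, H2-D1, H2-Q4 and H2-Q7 hold blocks of all 4 kinds. In H2-Q4 the CRE block lies between the CCAAT blocks, and in the other 3 it lies farther from the start than them.

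Levels of different genes were compared per length, as CPM per kilobase of the counted transcript (RPKM). H2-Q10, the secreted chain, ranked first in both ages, at 1777 ± 282 RPKM (SD, n = 10) when young and 1741 ± 188 (SD, n = 9) when old. B2m followed at 1461 ± 347 in young and 1615 ± 291 in old mice, and the ranges of H2-Q10 and B2m overlapped. The classical H2-K1 reached 981 ± 89.8 RPKM in young and 1185 ± 228 in old mice, above H2-D1 in every mouse, at 362 ± 63.4 and 524 ± 175. H2-T23, which encodes Qa-1, a chain read by natural killer cell receptors, followed at 157 ± 21.9 in young and 246 ± 44.1 in old mice. H2-Q7 and H2-T22 came next, at 53.3 and 48.2 RPKM in young and 76.7 and 62.7 in old mice, with overlapping ranges. H2-Q4 and H2-Q6 also overlapped, at 15.9 and 13.8 RPKM in young and 32.0 and 26.0 in old mice. H2-M3, a chain that presents formylated peptides, was lowest at 0.864 in young and 2.46 in old mice. The order of the 10 genes by mean was the same in both ages.

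Age was compared for all 12269 genes that passed the filter, by edgeR's quasi-likelihood test with cull day as a covariate. In old mice 8 of the 10 members rose, H2-K1, H2-D1, H2-Q4, H2-Q6, H2-Q7, H2-T22, H2-T23 and H2-M3, and 0 fell. Of all genes tested, 30.9% were called in either direction and 16.3% were called higher in old mice. The median log2 fold change was 0.52 over the 10 members and -0.0034 over all genes tested. H2-Q10 and B2m, the most abundant members per length, did not pass. Without mouse 1187, 7 members rose, all of the 8 but H2-K1, against 12.4% of genes called higher. The same 7 were called when young mice 1184, 1186 and 1188 were left out as well, against 15.7% of genes. On the first cull day alone 1 member was called, against 1.88% of genes. Markers of other liver cells also rose, among them 12 of 12 for macrophages and 11 of 11 for stellate cells, and with a score of such markers in the fit 2 members were called, H2-Q4 and H2-T23, against 6.06% of genes. In bulk RNA, more cells of a type and more RNA per cell cannot be told apart.

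**Figure D2:**
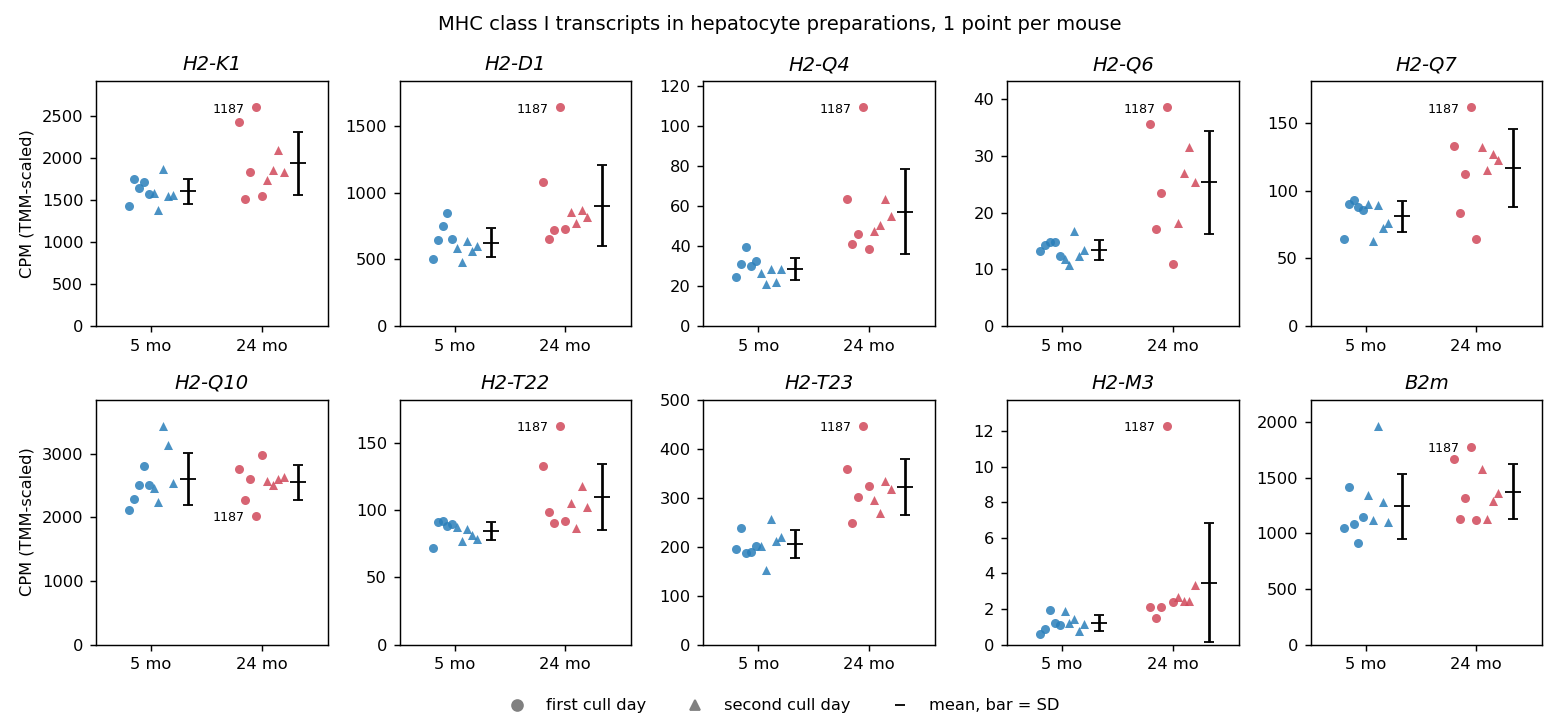
CPM of each class I gene, with 1 point per mouse, young mice (5 months) in blue, old mice (24 months) in red, and circles and triangles for the first and second cull day; black bars are means with SD. In H2-Q4, H2-Q6, H2-T23 and H2-M3, 8 of 9 old mice lie above all young mice, and mouse 1187 is the highest old mouse in every panel except H2-Q10, where it is the lowest.

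H2-T23 had from 153 to 256 CPM in young mice, with a median of 201, and from 249 to 447 CPM in old mice, with a median of 318. All old mice except 1183 lay above all young mice, and the overlap was young mouse 1239 (256 CPM) against old mouse 1183 (249 CPM). The log2 fold change was 0.64 (SE 0.104, edgeR adjusted p = 0.000311), a 1.56-fold rise. It was called on the first cull day alone (0.73, edgeR adjusted p = 0.0359) and on the second alone (0.55, edgeR adjusted p = 0.0103).

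H2-Q4 encodes a Q region heavy chain. It ranged from 21.0 to 39.6 CPM in young mice, with a median of 28.5, and from 38.5 to 109 CPM in old mice, with a median of 50.5. Old mouse 1189 lay just below young mouse 1184 (39.6 CPM), and the other 8 old mice lay above all young mice. The rise was 2.00-fold (log2 fold change 1.00, SE 0.161, edgeR adjusted p = 0.000301). Without mouse 1187 it was 1.79-fold and still called (edgeR adjusted p = 0.000115).

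H2-Q6 and H2-Q7 encode Qa-2 antigens, which hold a lipid anchor in place of a membrane-spanning tail. H2-Q6 had 10.7 to 16.8 CPM in young mice (median 13.3) and 10.9 to 38.6 CPM in old mice (median 25.5). Old mouse 1189 had the lowest old value and fell inside the young range, and the other 8 old mice lay above all young mice. H2-Q6 rose 1.88-fold (log2 fold change 0.91, SE 0.178, edgeR adjusted p = 0.0014). H2-Q7 had 63.0 to 93.0 CPM in young mice (median 87.2) and 64.6 to 162 CPM in old mice (median 123). It rose 1.44-fold (log2 fold change 0.53, SE 0.134, edgeR adjusted p = 0.00768), with 7 of 9 old mice above all young mice and mice 1183 and 1189 inside the young range. With H2-Q6, H2-Q7, H2-Q8 and H2-Q9 summed to 1 row, which counts shared reads more than once, the log2 fold change was 0.59 (edgeR adjusted p = 0.00476). The sum of all heavy chains except H2-M3, which H2-Q10 and H2-K1 dominate, gave 0.20 (SE 0.0881) and was not called.

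Of the classical pair, H2-D1 had 480 to 846 CPM in young mice (median 616) and 657 to 1642 CPM in old mice (median 818). Only 4 of 9 old mice lay above all young mice, since young mouse 1186 (846 CPM) and young mouse 1184 (749 CPM) were within the old range. The log2 fold change was 0.52 (SE 0.144, edgeR adjusted p = 0.012). Without mouse 1187 it was 0.38 (edgeR adjusted p = 0.0174).

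H2-K1 had 1380 to 1871 CPM in young mice (median 1578) and 1513 to 2604 CPM in old mice (median 1837). The age groups overlapped widely, with 3 of 9 old mice, 1181, 1187 and 1240, above all young mice. Its log2 fold change of 0.27 (SE 0.1) passed at an edgeR adjusted p of 0.048, and this call did not hold in 16 of 19 fits with a single mouse removed. Without mouse 1187 the log2 fold change was 0.21 (edgeR adjusted p = 0.106).

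H2-T22, a T region chain seen by gamma delta T cells, had 72.0 to 91.5 CPM in young mice (median 86.8) and 86.4 to 162 CPM in old mice (median 102). Its log2 fold change was 0.37 (SE 0.0998, edgeR adjusted p = 0.0103), with 7 of 9 old mice above all young mice. H2-M3 had 11 to 36 counts in young libraries and 29 to 281.5 counts in old libraries, so its values are the least precise. It ranged from 0.579 to 1.97 CPM in young mice (median 1.20) and from 1.51 to 12.3 CPM in old mice (median 2.43), with 8 of 9 old mice above all young mice. The 12.3 CPM belong to mouse 1187, and the other old mice reached at most 3.37 CPM. The log2 fold change of H2-M3 was 1.48 (SE 0.362, edgeR adjusted p = 0.00599) and fell to 0.94 without mouse 1187 (edgeR adjusted p = 0.00228), a rise of 1.92-fold in place of 2.78-fold. It was not called on the first cull day alone (1.81, edgeR adjusted p = 0.103) or with the score of other-cell markers in the fit (0.23, edgeR adjusted p = 0.433). No member separated the ages completely, and of all genes tested 0.994% had all old mice above all young mice.

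H2-Q10 had 2110 to 3439 CPM in young mice (median 2508) and 2020 to 2976 CPM in old mice (median 2600). The ranges overlapped almost wholly, and young mice 1239 and 1243 held the highest values. Its log2 fold change was -0.02 (SE 0.0938, edgeR adjusted p = 0.882), and 0.02 when libraries were scaled by their totals alone. B2m had 918 to 1970 CPM in young mice (median 1139) and 1119 to 1780 CPM in old mice (median 1317). No old mouse lay above all young mice for B2m, because young mouse 1239 was highest of all. Its log2 fold change was 0.16 (SE 0.131, edgeR adjusted p = 0.376). It was 0.24 without young mouse 1239 (edgeR adjusted p = 0.106) and 0.09 without old mouse 1187 (edgeR adjusted p = 0.609).

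The age effect was also compared between the cull days, by an interaction term in edgeR. It was called for 0 of 10 members and for 0% of all genes, with 0 members and 799 genes at an unadjusted p under 0.05. limma-voom with sample weights called the interaction in 349 genes (2.84%) and in 0 members, with H2-Q4 at an unadjusted p under 0.05. On the second cull day alone 7 members were called higher in edgeR, the 8 above without H2-K1, against 12.2% of genes. On the first day alone H2-T23 was called, against 1.88% of genes. For all 8 called members the estimate of the first day had the same sign as that of the second and a larger SE. For B2m the estimate was 0.32 on the first day and -0.02 on the second, and for H2-Q10 it was 0.05 and -0.09, none of them called.

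Whether a heavy chain changed by another amount than the light chain was tested with limma on the log2 ratio to B2m, fitted for 12268 genes. Relative to B2m, 4 of 9 heavy chains were higher in old mice, against 4.71% of genes called higher. They were H2-Q4 (0.79 on the log2 scale, SE 0.16, limma adjusted p = 0.00258), H2-T23 (0.48, SE 0.12, limma adjusted p = 0.0129), H2-M3 (1.05, SE 0.274, limma adjusted p = 0.0167) and H2-Q6 (0.66, SE 0.176, limma adjusted p = 0.0187). In the 19 fits with 1 mouse removed, young mouse 1239 with its high B2m among them, the limma adjusted p of these 4 was at most 0.0462. H2-T23 per B2m, both per length, was 0.110 ± 0.0162 (SD, n = 10) at 5 months and 0.154 ± 0.0192 (SD, n = 9) at 24 months. The differences of H2-D1 (0.32, limma adjusted p = 0.148), H2-Q7 (0.33, limma adjusted p = 0.113), H2-T22 (0.19), H2-K1 (0.09) and H2-Q10 (-0.18) did not pass. For H2-D1 and H2-Q7 an exact permutation test within cull days gave unadjusted p of 0.0436 and 0.0257, beside unadjusted limma p of 0.0462 and 0.0275. On the first cull day alone 0 of the 9 passed in limma, against 0.489% of genes, with H2-Q4, H2-T23 and H2-M3 at an unadjusted p under 0.05. On the second day alone 4 passed, H2-Q4, H2-Q6, H2-Q7 and H2-M3, against 7.82% of genes.

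**Figure D3:**
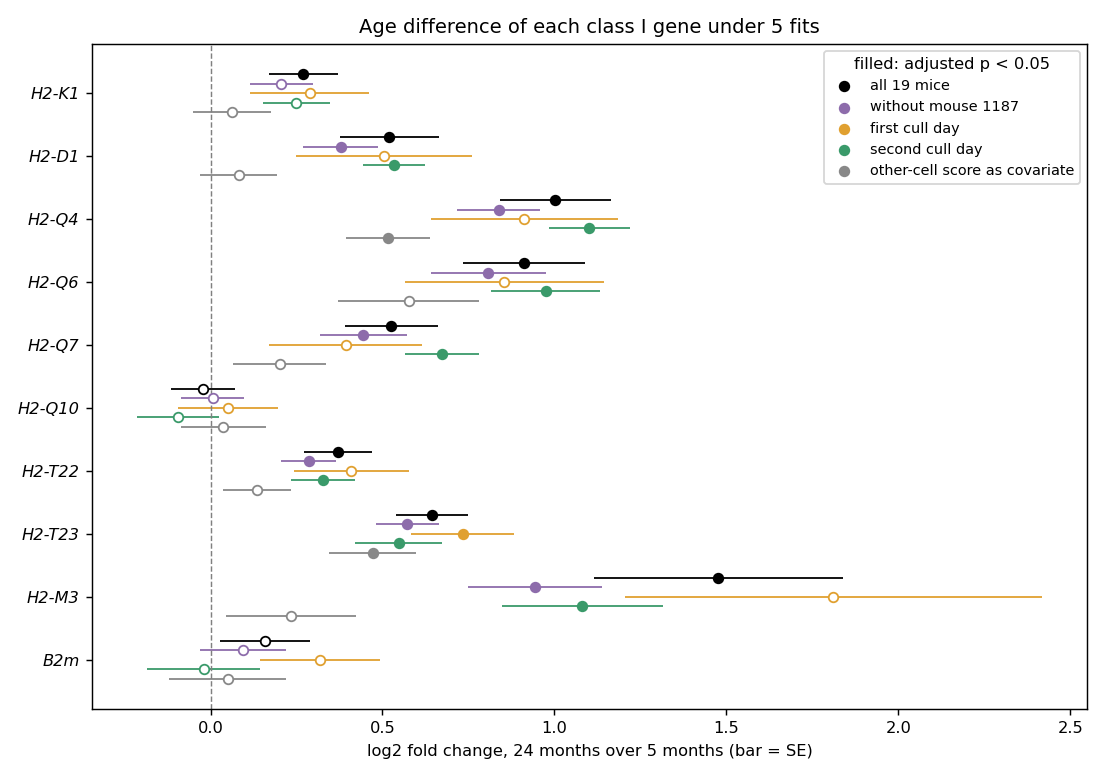
Log2 fold change of old over young mice for each class I gene (horizontal axis) with its SE, in all 19 mice, without mouse 1187, on each cull day alone, and after adding the other-cell score to the fit; filled points passed an adjusted p of 0.05. H2-T23 is filled in all 5 fits and H2-Q4 in 4 of them, while H2-Q10 (-0.09 to 0.05) and B2m (-0.02 to 0.32) are open in all 5.

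Markers of other liver cells moved with age in these preparations. All 12 macrophage and Kupffer cell markers were called higher in old mice, as were 7 of 11 endothelial and 11 of 11 stellate markers, against 16.3% of all genes. Without mouse 1187 the counts were 2, 6 and 8, against 12.4% of all genes. The summed macrophage markers ranged from 100.1 to 486 CPM in young mice and from 67.9 to 3310 CPM in old mice, and 3310 CPM was mouse 1187. The summed endothelial markers ranged from 176 to 325 CPM in young and from 187 to 605 CPM in old mice, and the stellate markers from 40.7 to 111 and from 104 to 397 CPM. The 10 T and NK cell markers summed to between 0.936 and 3.15 CPM in young mice and between 1.25 and 34.7 CPM in old mice. No marker of these lists was at 0 in every library. Their part in the class I differences was not tested beyond the comparisons that follow.

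An other-cell score was taken as the mean log2 CPM of 36 tested markers, those of macrophages, endothelial cells, stellate cells, B cells and T or NK cells. It ranged from 2.27 to 3.83 in young mice (median 2.88) and from 2.54 to 5.76 in old mice (median 3.95). With this score as a further covariate, 2 of the 10 members were called higher in edgeR, H2-Q4 (0.51, SE 0.122, edgeR adjusted p = 0.0107) and H2-T23 (0.47, SE 0.126, edgeR adjusted p = 0.0211). Of all genes, 6.06% were called higher in that fit, and 1462 of 12269 were called in either direction. The markers themselves did not level out alike, with 8 of 12 macrophage markers called lower in old mice and 7 of 11 stellate markers still called higher. The score therefore does not adjust each cell type evenly, and the source of the class I differences was not tested by it. H2-Q6 stood at 0.58 on the log2 scale (edgeR adjusted p = 0.071). H2-D1 (0.08), H2-K1 (0.06), H2-Q7 (0.20) and H2-T22 (0.14) were not called either.

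**Figure D4:**
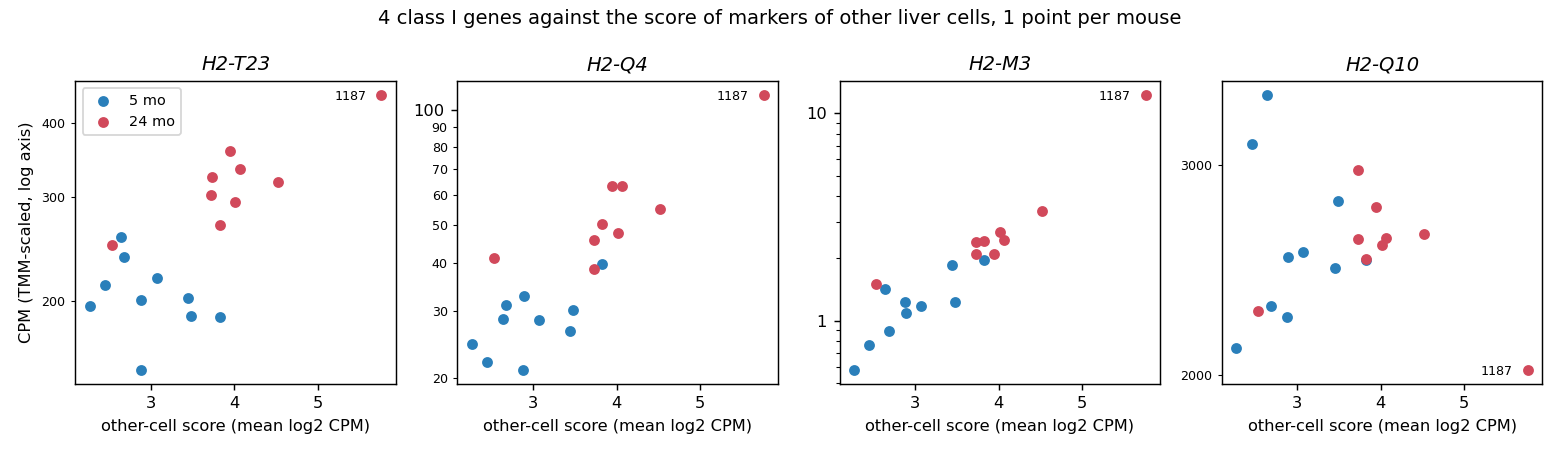
CPM of 4 class I genes (vertical, log axis) against the other-cell score (horizontal, mean log2 CPM of 36 markers), with 1 point per mouse, young in blue and old in red. Points of H2-M3 climb with the score, from 0.579 to 12.3 CPM, those of H2-Q4 run from 21.0 to 109 CPM and those of H2-T23 from 153 to 447 CPM, and H2-Q10 is lowest in mouse 1187. Of the 9 old scores, 6 lie above the highest young score, 3.83.

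Variation among mice of the same age and cull day was described by Pearson's r of log2 CPM after removing the 4 age by day means, over 19 libraries that share scaling and preparation. Among the 7 heavy chains other than H2-Q10 and H2-M3, the 21 pairs had r from 0.57 to 0.90, and from 0.41 to 0.86 without mouse 1187. H2-Q10 was apart in all 19 mice, with r from -0.25 to 0.20 with the other members. Without mouse 1187 its r ranged from 0.19 to 0.60, so these values depend on that mouse. With the other-cell score, H2-M3 had r = 0.93 (0.86 without mouse 1187), H2-D1 0.84 (0.64) and H2-Q4 0.81 (0.56), so that H2-Q4, though called with the score in the fit, ran with it among mice of an age. H2-T22 had r = 0.69 (0.39), H2-Q7 0.66 (0.44) and H2-K1 0.62 (0.37). H2-T23 had 0.48 (0.15), H2-Q6 0.47 (0.18), B2m 0.28 (0.00) and H2-Q10 -0.17 (0.26).

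**Figure D5:**
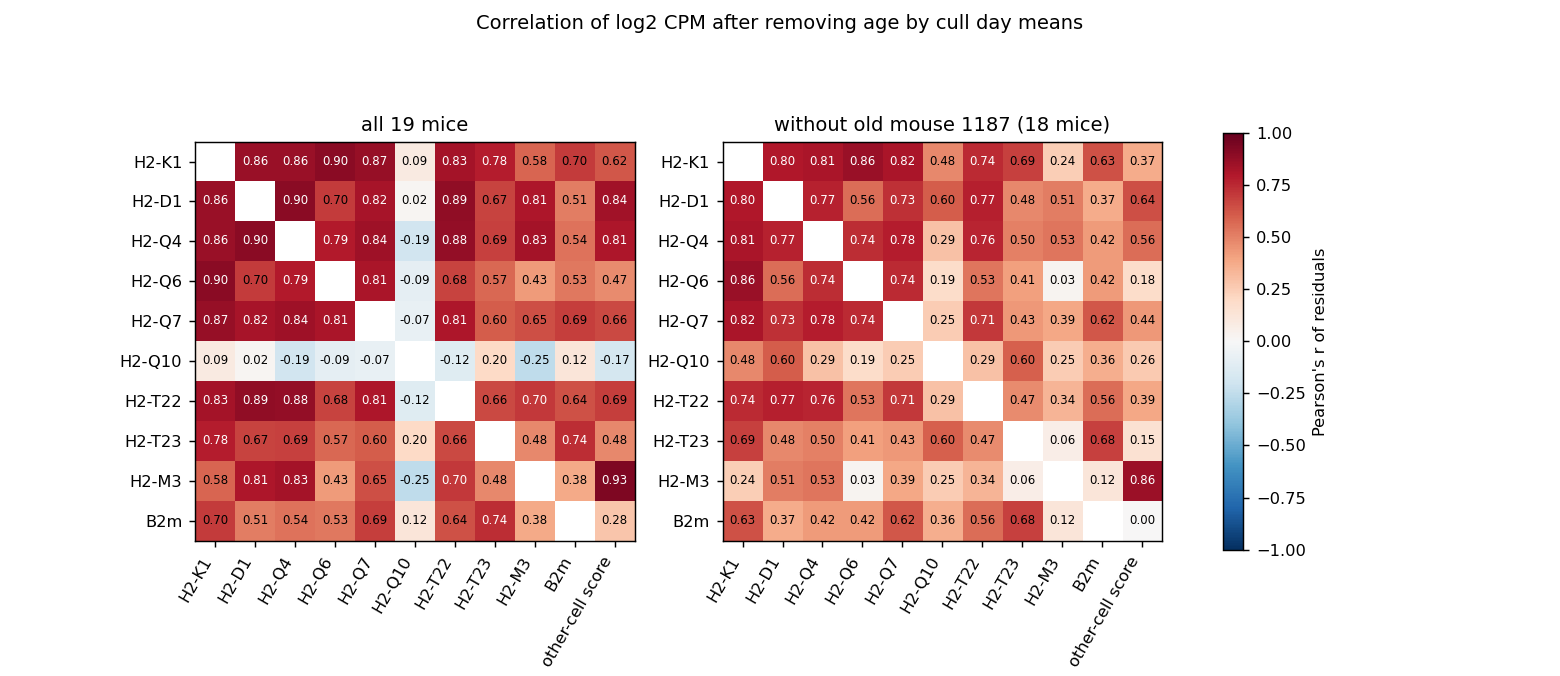
Pearson's r between class I genes, and with the other-cell score, of log2 CPM after removing age by cull day means, in all 19 mice (left) and without old mouse 1187 (right); colour runs from -1 (blue) to 1 (red). The H2-Q10 row is near 0 on the left and between 0.19 and 0.60 with the other members on the right.

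The genes whose residual pattern lay nearest to each member, 3 per member by r over 19 mice, included the overlapping rows H2-L, H2-Q8, H2-Q9 and H2-T9, which share reads with members. The second r in each bracket is without mouse 1187. Among the rest, H2-K1 lay near Tap1 (r = 0.89, 0.84), a subunit of the peptide transporter, and Sulf2 (0.88, 0.84), and H2-T22 near the immunoproteasome subunit gene Psmb9 (0.91, 0.83) and Cenpq (0.90, 0.83). H2-Q4 lay near Ifit2 (0.94, 0.85), an interferon-induced gene, Parp11 (0.93, 0.81) and Ly6a (0.93, 0.81). H2-D1 lay near Rinl (0.95, 0.88) and Epsti1 (0.93, 0.87), H2-Q7 near Tnfsf10 (0.92, 0.87), which encodes the death ligand TRAIL, and Lamp1 (0.87, 0.81), and H2-Q6 near Sulf2 (0.93, 0.91) and H2-Q5 (0.92, 0.89). H2-Q8 was also the nearest of the rows searched to H2-K1 (0.90, 0.86), though the member H2-Q6 lay slightly nearer.

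The other 4 members had different neighbours. H2-T23 lay near Ctsd (0.88, 0.84), which encodes the lysosomal protease cathepsin D, M6pr (0.83, 0.77), which encodes a mannose 6-phosphate receptor that carries enzymes to lysosomes, and Gstm2 (0.82, 0.84). H2-M3 lay near Timp2 (0.97, 0.90), Ckb (0.97, 0.91) and Ptger1 (0.97, 0.89). H2-Q10 lay near Oat (0.88, 0.92), an enzyme of ornithine breakdown, Pfkfb1 (0.87, 0.85), an enzyme that sets the pace of glycolysis, and Cldn2 (0.87, 0.87). B2m lay near Tmem192 (0.81, 0.77), Ociad1 (0.79, 0.85) and Taldo1 (0.79, 0.75).

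Genes that serve class I were read from the same fit. Of 14 genes for peptide cutting and loading, 8 rose, 0 fell and 6 did not pass, with a median log2 fold change of 0.31, where 16.3% of all genes were called higher. Tapbp, the tapasin that bridges heavy chain and transporter, rose by 0.59 on the log2 scale (SE 0.112, edgeR adjusted p = 0.00119), Tap2 by 0.62 (SE 0.129, edgeR adjusted p = 0.0022) and Psmb10 by 0.45 (SE 0.116, edgeR adjusted p = 0.00786). Tap1 rose by 0.75 (SE 0.237, edgeR adjusted p = 0.0236), with 17.1 to 24.9 CPM in young and 17.6 to 80.8 CPM in old mice. The highest value was that of mouse 1187, and without it Tap1 rose by 0.52 (edgeR adjusted p = 0.0439). In that fit 7 of the 14 were called higher, against 12.4% of all genes. The general chaperones Calr, Canx and Pdia3 had log2 fold changes of -0.0043, -0.04 and 0.02. After the other-cell score was added to the fit, 0 of the 14 were called in edgeR, against 6.06% of genes called higher, and Tapbp had an adjusted p of 0.0777.

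Of 16 genes that control class I transcription, 6 rose, 1 fell and 9 did not pass, with a median log2 fold change of 0.27, where 16.3% of all genes were called higher. Nlrc5, the class I transactivator, rose by 0.64 (SE 0.144, edgeR adjusted p = 0.00345), from 7.92 ± 1.59 CPM (SD, n = 10) when young to 12.4 ± 3.56 CPM (SD, n = 9) when old. Irf9 rose by 0.34 (edgeR adjusted p = 0.00997), Nfyb by 0.24 (edgeR adjusted p = 0.0125) and Rfx5 by 0.33 (edgeR adjusted p = 0.0434). Rfx5 was not called without mouse 1187 (0.32, edgeR adjusted p = 0.0714) or with the other-cell score in the fit (edgeR adjusted p = 0.0933). Creb1 fell by 0.28 on the log2 scale (edgeR adjusted p = 0.0353). Irf1 (0.49, edgeR adjusted p = 0.0633) did not pass. Without mouse 1187, 4 of the 16 rose and 1 fell, against 12.4% of genes called higher. With the other-cell covariate 1 of 16 rose, Nfyb, a share near the 6.06% of all genes.

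Of 7 interferon receptor and kinase genes, 2 rose, where 16.3% of all genes were called higher: Ifngr1, a chain of the interferon gamma receptor, by 0.67 (SE 0.153, edgeR adjusted p = 0.00399) and Ifnar1 by 0.18 (SE 0.059, edgeR adjusted p = 0.0251). Mouse 1187 had the highest Ifngr1 level, 41.0 CPM, and without it the rise was 0.48 (edgeR adjusted p = 0.00102). After the other-cell score was added, neither was called, with Ifngr1 at 0.18 (edgeR adjusted p = 0.271) and Ifnar1 at 0.17 (edgeR adjusted p = 0.16), and 1 gene of the list, Jak1, was lower. In that fit 6.06% of all genes were called higher. Of a list drawn up for receptors of class I, 13 genes were in the table, and their binding of class I was not checked here. The 2 that passed the filter were Pirb and Lilrb4a, both inhibitory receptors of myeloid cells. They rose by 1.64 and 1.81 (edgeR adjusted p = 0.0201 and 0.0172), from 0.79 to 4.26 and 0.66 to 3.11 CPM in young mice. Mouse 1187 held 25.1 and 27.3 CPM of them, and neither was called without it. With the other-cell score in the fit their estimates turned negative, at -0.52 for Pirb and -0.55 for Lilrb4a, and were not called (edgeR adjusted p = 0.102 and 0.1).

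Other class I and class I-like genes completed the family. Of 40 in the list, 20 passed the filter, 14 of them rose and 0 fell, where 16.3% of all genes were called higher, but 4 of the 14 are the rows that overlap members. With the other-cell score in the fit 5 of the 20 were called higher, against 6.06% of genes, and these were Raet1a to Raet1e, of whose 10 pairs of rows 9 overlap on the genome. Raet1e, Raet1c and H2-Q8 (0.90, edgeR adjusted p = 0.00148), which shares its reads with H2-Q6, had the smallest p. Hfe, a class I-like chain that pairs with beta-2-microglobulin and acts in iron sensing, had 50.7 ± 3.34 CPM (SD, n = 10) when young and 49.6 ± 4.46 CPM (SD, n = 9) when old, a difference of -0.03 on the log2 scale (SE 0.0577, edgeR adjusted p = 0.709). Fcgrt, the neonatal Fc receptor, which also pairs with it and recycles antibody and albumin, differed by 0.14 on the log2 scale (SE 0.0963, edgeR adjusted p = 0.28).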

How the data were processed

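The authors deposited 1 table of estimated counts per gene for 19 libraries, 1 per mouse. Per the file headers HOMER's analyzeRepeats.pl made it on mm10, over exons of RefSeq transcripts condensed to genes and left raw. STAR and HOMER are named in the submitters' processing notes, with versions, strand setting and treatment of reads with several matches not given in the sources used here. The deposited counts were multiples of 0.5 (29.2% not whole) and were rounded before count tests. Genes were filtered with edgeR's filterByExpr (minimum count 10) and scaled by TMM. Age was tested with edgeR 4.0.16 (R 4.3.3), cull day as covariate and Benjamini-Hochberg adjustment over all genes, with a threshold of 0.05. SEs were the absolute log2 fold change over the square root of F. Ratios to B2m used limma 3.58.1 on log2 CPM (prior count 2). The fit was tested on simulated data. DESeq2 1.42.0, limma-voom, other scalings, filters and subsets of mice were alternatives. That libraries are separate mice rests on the labels. Transcript windows came from GENCODE M21 (mm10), with each member matched by RefSeq accession. Promoters came from RefSeq and matched all 10 members. Named genes are the members, the 3 nearest patterns of each (predicted genes left out), the 3 smallest p per pathway list, and Nlrc5, Irf1, Rfx5, Hfe, Fcgrt and Tap1, with 1 further gene of this rule not reported here. Other genes named, among them Calr, Canx, Pdia3, Creb1, Jak1, H2-Q1, H2-T10, Mr1, Raet1a, Raet1b and Raet1d, were chosen after their values were seen. The members and lists were chosen with earlier results of these data known.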

Additional observations from a re-analysis of the deposited data

Results flagged for a closer look

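In 20 groups, each of 1 member in 1 age, the highest and lowest mouse were compared with the rest by Dixon's ratio of gap to range. Chance flags about 1 in 20 such groups, and 4 groups were flagged. In old mice, mouse 1187 stood above the others for H2-D1 (1642 CPM, next 1081), H2-Q4 (109 CPM, next 63.4) and H2-M3 (12.3 CPM, next 3.37). The same mouse had the highest other-cell score, 5.76 against at most 4.52 in the other old mice. In young mice, mouse 1239 stood above the others for B2m (1970 CPM, next 1421), with an other-cell score of 2.64, inside the young range.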

How the results depend on the processing

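The 3785 genes called by age became 1462 with the other-cell covariate, 450 in mice of the first cull day alone, 2388 in those of the second, and 3014 to 3949 when single mice were left out. The 8 members called became 2 with that covariate and 1 on the first day, and 7 to 8 when single mice were left out. H2-K1 (0.27) was not called with DESeq2 size factors (0.26), column-name totals (0.30), no filter (0.24), the covariate (0.063), the first (0.29) or second day (0.25), without young mice 1184, 1186 and 1188 (0.27), or, added after seeing the data, without these and 1187 (0.22). With single mice left out it ranged from 0.21 to 0.31. With the covariate H2-D1 (0.081), H2-Q6 (0.58), H2-Q7 (0.20), H2-T22 (0.14) and H2-M3 (0.23) were lost. On the first day H2-D1 (0.50), H2-Q4 (0.91), H2-Q6 (0.85), H2-Q7 (0.39), H2-T22 (0.41) and H2-M3 (1.81) were lost. DESeq2 gave an estimate for H2-M3 (1.47) but neither a p nor an adjusted p. Relative to B2m, H2-Q4 (0.51), H2-Q6 (0.40), H2-T23 (0.40) and H2-M3 (1.04) were lost on the first day, H2-T23 (0.56) on the second, H2-Q7 (0.68) was gained on the second, and H2-D1 (0.32) and H2-Q7 (0.33) passed only without adjustment, by the exact permutation test as by limma. Single-day fits have fewer mice, and the other causes were not tested. With the reference transcript length the young RPKM of H2-D1 was 298 in place of 362. H2-M3, at 11 counts in its lowest library, is limited by depth. No paired analysis was possible because the ages share no library numbers.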

Other observations

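Of the class I-like genes, the Raet1 rows, which encode stress-induced ligands of the activating receptor NKG2D, were called with the largest log2 fold changes. The row for Raet1c rose by 1.25 (SE 0.203, edgeR adjusted p = 0.000333), from 7.13 to 21.5 CPM in young mice to 23.4 to 59.2 CPM in old mice. The ages did not overlap, and of all genes tested 0.994% had all old mice above all young mice. Raet1e gave 1.25 (edgeR adjusted p = 0.000324), and Raet1a, Raet1b and Raet1d gave 1.25 to 1.27. Of the 10 pairs of these 5 rows, 9 overlap on the genome, so the rows may share reads and are not independent measurements. The rows for Raet1a, Raet1b and Raet1c overlap one another by 200212 to 200239 bases and also overlap those for Raet1d and Raet1e. The rise therefore cannot be assigned to 1 of these genes. With the other-cell score in the fit, Raet1c had a log2 fold change of 1.45 (edgeR adjusted p = 0.00218), and mouse 1187, at 34.3 CPM, was not the highest old mouse. H2-Q1 rose by 1.20 (SE 0.283, edgeR adjusted p = 0.00463) and H2-T10 by 0.83 (SE 0.18, edgeR adjusted p = 0.00283). Mr1, which presents vitamin metabolites to innate-like T cells, rose by 0.65 (edgeR adjusted p = 0.0261). These 3 were not called with the other-cell score in the fit, at 0.85 for H2-Q1, 0.43 for H2-T10 and 0.54 for Mr1 (edgeR adjusted p = 0.113, 0.126 and 0.204). H2-Q1 and H2-T10 had means of only 4.90 and 2.77 CPM in young mice. They share 85 windows with H2-D1 and 163 with H2-T22, which are far more abundant, so reads of these members could count in their rows. This was not tested.

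As a description with no test, H2-Q10 made up 52.0% ± 3.14 of the summed heavy chain RPKM at 5 months (SD, n = 10) and 45.2% ± 6.49 at 24 months (SD, n = 9). Its share was 30.2% in old mouse 1187. H2-T23 took 3.86% to 5.45% of that sum in young mice and 5.58% to 7.48% in old mice, with no overlap between the ages. It was the only 1 of the 9 heavy chains whose share separated the ages, and its CPM did overlap. No share over all genes can be given for this measure. The summed heavy chain RPKM over B2m RPKM was 2.41 ± 0.463 in young mice and 2.45 ± 0.281 in old mice.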
